A study of Mus musculus with 3 samples.

Results

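The opioid peptides and their receptors were read as 7 genes, matched by symbol in the gene list of the deposited count matrix: the 3 peptide precursor genes Penk, Pdyn and Pnoc, and the 4 receptor genes Oprm1, Oprk1, Oprd1 and Oprl1. All 7 were found among 28001 features. Single cells came from the nucleus accumbens of mice of the Thy1::ChR2 strain, in which the strain name gives Thy1 as the element that drives the light-gated channel ChR2. All 3 samples belong to 1 group: FLiCRE labelling was carried out while ChR2 was stimulated with light in the accumbens, and the tissue was a 400 um coronal slice. FLiCRE writes calcium activity that coincides with light into a reporter RNA. The labels give no unstimulated or unlabelled group, no age, and no word on whether the 3 samples were separate animals, so each comparison below is between classes of cells inside the same libraries, and p-values measure only the spread between these 3 libraries.

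Opioid peptides are cut from large precursor proteins inside secretory granules. Proenkephalin, from Penk, gives Met- and Leu-enkephalin, which act mainly at the delta receptor (Oprd1) and the mu receptor (Oprm1); prodynorphin, from Pdyn, gives the dynorphins and neoendorphins, which act mainly at the kappa receptor (Oprk1); and Pnoc gives nociceptin, the ligand of Oprl1. All 4 receptors couple to inhibitory G proteins, which lower adenylyl cyclase activity and open inwardly rectifying potassium channels. In the striatum, spiny projection neurons with the D1 dopamine receptor are known for dynorphin and those with the D2 receptor for enkephalin.

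The 3 precursor genes carry related coding stretches: the opioid core in Penk and Pdyn, and in Pnoc a stretch whose first 15 bases match that of dynorphin A at 11. The stretches below were read 5′ to 3′ from the GENCODE M21 transcripts on GRCm38 (mm10), and are shown because the ligand's coding bases start there. Those of Pdyn and Pnoc are a fixed 51 bases from the core on. They were not cut to the length of each peptide, so a stretch, such as that of dynorphin B, can run past the peptide's end. Those of Penk are the 5 core codons only, named by the fifth. A Met-enkephalin copy can therefore be the start of a longer peptide. Capitals mark the 15 bases of the 5 core codons, and lower case the codons that follow.
Dynorphin A (Pdyn): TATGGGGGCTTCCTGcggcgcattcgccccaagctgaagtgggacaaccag
Dynorphin B (Pdyn): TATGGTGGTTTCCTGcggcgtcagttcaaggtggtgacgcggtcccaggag
Nociceptin (Pnoc): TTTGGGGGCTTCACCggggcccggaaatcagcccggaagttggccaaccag
Leu-enkephalin (Penk): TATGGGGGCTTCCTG
Met-enkephalin, copy 1 of 6 (Penk): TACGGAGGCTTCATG
Met-enkephalin, copy 4 of 6 (Penk): TATGGGGGCTTCATG

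The core of dynorphin A matched that of dynorphin B at 13 of 15 bases, and over 51 bases it matched nociceptin at 30. The Penk transcript held 7 cores in 6 distinct spellings, all in exon 2 (chr4:4133848-4134348 from the last to the first, minus strand). By the fifth codon, 6 were Met-enkephalin cores and 1 was a Leu-enkephalin core, and where each peptide ends was not read. The 3 Pdyn cores lay in exon 4 of the transcript Pdyn-201, with dynorphin A at chr2:129688094-129688144, and the nociceptin stretch lay in exon 3 of Pnoc-201 at chr14:65404842-65404892, both on the minus strand. A Penk or Pdyn molecule therefore encodes several ligands, and the counts below are of RNA molecules, not of peptides.

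In the annotation, Penk spans chr4:4133531-4138819, Pdyn chr2:129686565-129699844 and Pnoc chr14:65400673-65425472, all on the minus strand. The receptor genes are Oprm1 at chr10:6758506-7038198, Oprk1 at chr1:5588466-5606131 and Oprl1 at chr2:181715016-181720985, all on the plus strand, and Oprd1 at chr4:132110726-132144486 on the minus strand. Oprm1 overlaps 2 counted genes on the other strand, Gm10945 and Ipcef1, and Penk overlaps 1 gene that is not among the features. The sources used here do not say whether the counting used strand, so for Oprm1 sense and antisense reads cannot be told apart.

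After filtering, libraries 1 to 3 (numbered by the suffix of the cell barcodes, which nothing ties to the numbered replicates) held 2306, 5783 and 1834 cells, with 2789355, 14578665 and 6276639 UMIs. UMIs are molecular tags, and copies of a molecule that carry the same tag count once. The libraries shared 7 to 22 barcode sequences in pairs. Cells were sorted into classes by marker genes that include none of the 7 opioid genes. The D1-like class (161, 1263 and 234 cells) led with Drd1 and Isl1, and the D2-like class (145, 577 and 185 cells) had Adora2a in 96% to 98.6% of cells, whereas Drd2 itself was found in at most 1.39% of them. Drd1, Isl1 and Adora2a are gate markers, so their levels here follow from the gates. Library 2 stood apart in its background: non-neuronal cells there held Penk at 8.57% of the level in neurons of the same library, against 0.965% in library 1 and 2.1% in library 3.

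The members differed widely in how much RNA was counted. Over all 9923 cells, Penk had 39438 UMIs, Pdyn 3846, Oprk1 1281 and Oprl1 465. Pnoc had 52, Oprm1 34 and Oprd1 19. No cell held more than 1 UMI of Oprm1 or Oprd1, and 51.9% of the Pnoc UMIs lay in 5 cells, so those 3 genes could be described in few classes only.

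Neurons held the opioid RNA. Between all neurons and all non-neuronal cells, 4 of the 7 genes had enough counts to be tested and all 4 passed (edgeR quasi-likelihood, Benjamini-Hochberg adjusted p under 0.05). In that comparison 65.8% of all genes tested passed, so the count is a weak statement about these genes. Penk was at 2652, 2561 and 3145 CPM (the gene's UMIs per 1000000 UMIs of the class) in neurons of libraries 1 to 3, and at 25.6, 220 and 66.2 CPM in non-neuronal cells. The groups did not overlap, and the difference was 4.77 ± 0.57 on the log2 scale (SE, adjusted p = 0.000302). Pdyn was at 211, 275 and 228 CPM in neurons and 2.08, 29.1 and 6.62 CPM in other cells, and its log2 difference was 4.14 ± 0.48 (adjusted p = 0.000253).

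The receptors showed the same separation. The Oprk1 level was 104 ± 26.9 CPM in neurons (SD over 3 libraries) and 2.32 ± 2.46 CPM outside them, a log2 difference of 4.98 ± 0.61. Oprl1 was at 32.9 ± 2.66 CPM in neurons and 1.83 ± 2.04 CPM elsewhere, a log2 difference of 3.54 ± 0.51. Oprd1 had 0 UMIs in the non-neuronal cells of every library, which allows up to 2.08, 0.864 and 1.1 CPM at 3 counts, and Oprm1 had 2 UMIs there, both in library 2. Without the filter on low counts all 7 members were tested and passed. That count is also a weak statement, since 65.8% of all genes passed with the filter and the share without it is not given. Such intervals and limits cover counting error only.

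**Figure D1:**
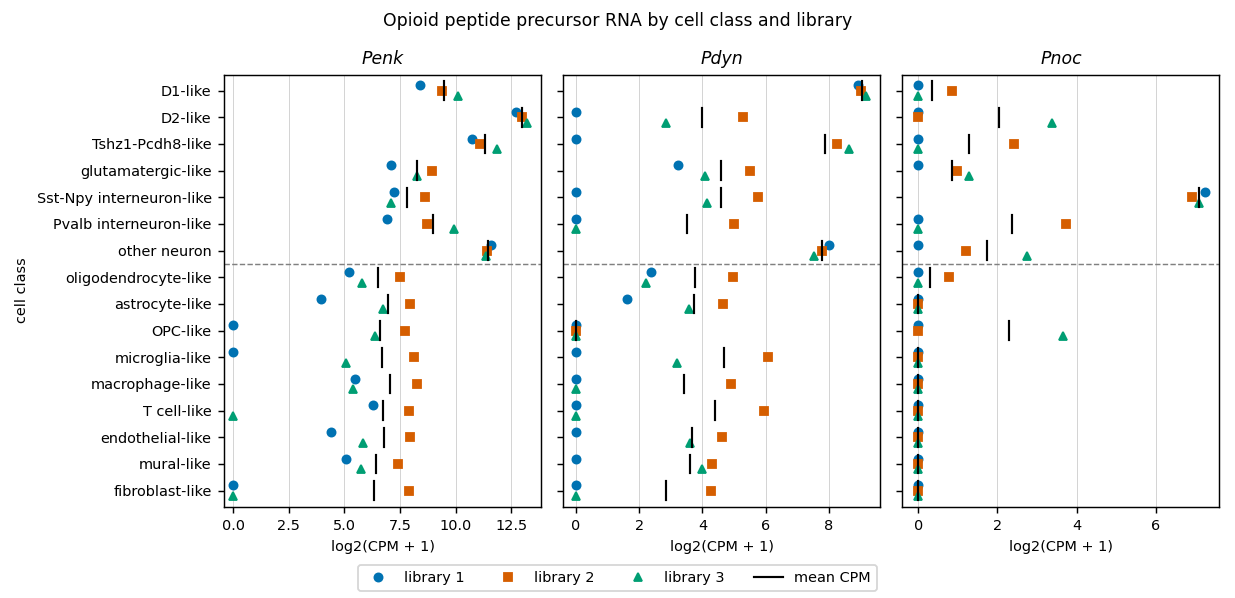
Levels of the 3 precursor RNAs, as log2(CPM + 1), in 16 cell classes (rows). Each point is 1 library, the black bar is the log2 of the mean CPM plus 1, and the dashed line divides neurons from other cells. Penk peaked in D2-like neurons, Pdyn in D1-like neurons and Pnoc in Sst-Npy interneuron-like cells, and library 2 lay highest for Penk in each of the non-neuronal classes.

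Penk was highest in D2-like neurons. These held 6738, 7968 and 9361 CPM in libraries 1 to 3, above every value in the other 15 classes compared. D1-like neurons held 337, 666 and 1101 CPM, so the groups did not overlap. The fitted difference was -3.51 ± 0.25 on the log2 scale (D1-like over D2-like, 11.4-fold lower, edgeR adjusted p = 0.0463, lower in 3 of 3 libraries). Of the 4 members tested between D1-like and D2-like neurons, Penk was the 1 that passed, against 2.94% of all genes tested. The Penk call was lost without library 2 (adjusted p = 0.327) and with only cells of at least 1000 UMIs (adjusted p = 0.0767), while the log2 difference stayed between -3.79 and -3.22 over all alternatives.

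Pdyn ran the other way. D1-like neurons held 479, 514 and 574 CPM, and D2-like neurons 0, 37.9 and 6.21 CPM. The groups did not overlap, and the D2-like values lay close to those of oligodendrocyte-like cells of the same libraries, at 4.23, 30.2 and 3.66 CPM. The fitted difference was 4.27 ± 0.47 on the log2 scale (19.3-fold) but its edgeR adjusted p was 0.11. The difference passed under 9 of 11 alternatives, among them DESeq2 (5.87, adjusted p = 0.000152), and it did not under another scaling (adjusted p = 0.102) or with doublets kept (adjusted p = 0.081).

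The kappa receptor was found in both spiny classes, with a difference inside the spread between libraries. Oprk1 was at 137, 113 and 161 CPM in D1-like neurons and at 142, 74.8 and 154 CPM in D2-like neurons, with overlapping ranges. Its log2 difference was 0.32 ± 0.13 (adjusted p = 0.246), higher in 2 of 3 libraries. Oprl1 was at 9.77, 33.1 and 26.7 CPM in D1-like and 45.4, 15.2 and 15.5 CPM in D2-like neurons. The fitted log2 difference of Oprl1 was 0.79 ± 0.27 (adjusted p = 0.121), while its mean CPM was lower in D1-like neurons: library 1, with 2 and 8 UMIs, ran opposite to libraries 2 and 3.

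The free RNA of the suspension can place a UMI in a cell that does not make the gene, so shares of cells were set beside those of oligodendrocyte-like cells, the background class used here. Penk had a UMI in 94.5%, 98.8% and 96.8% of D2-like neurons and in 3.92%, 31.2% and 15.9% of oligodendrocyte-like cells. Median depths were 1159, 3041 and 2618 UMIs in D2-like neurons and 947, 2145.5 and 4149 in oligodendrocyte-like cells. With each cell thinned to 1000 UMIs and shallower cells left out, the share was 96.7%, 96.7% and 95% against 2.63%, 14.5% and 6.47%, so the groups did not overlap.

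In D1-like neurons the same measures were lower but above that background. Penk had a UMI in 16.3%, 33.7% and 26.8% of thinned D1-like neurons (19.9%, 60% and 48.3% unthinned). Cells with 5 or more Penk UMIs were 3.73%, 10.1% and 15.4% of D1-like neurons, and they held 50.7%, 58.8% and 86.1% of that class's Penk UMIs. In oligodendrocyte-like cells such cells were 0%, 0.704% and 0.313%. Penk in D1-like neurons was thus concentrated in a minority of cells in each library.

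Because the D1-like gate allows a few D2 marker UMIs, the level was also taken over the 1511 D1-like neurons with 0 UMIs of the D2 markers, a check added after the data were seen. Penk was then at 324, 598 and 1045 CPM, against 337, 666 and 1101 CPM in the whole class. Pdyn in these cells was at 532 ± 41.1 CPM, against 522 ± 48.2 CPM. Neither gene moved by more than the spread between libraries.

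**Figure D2:**
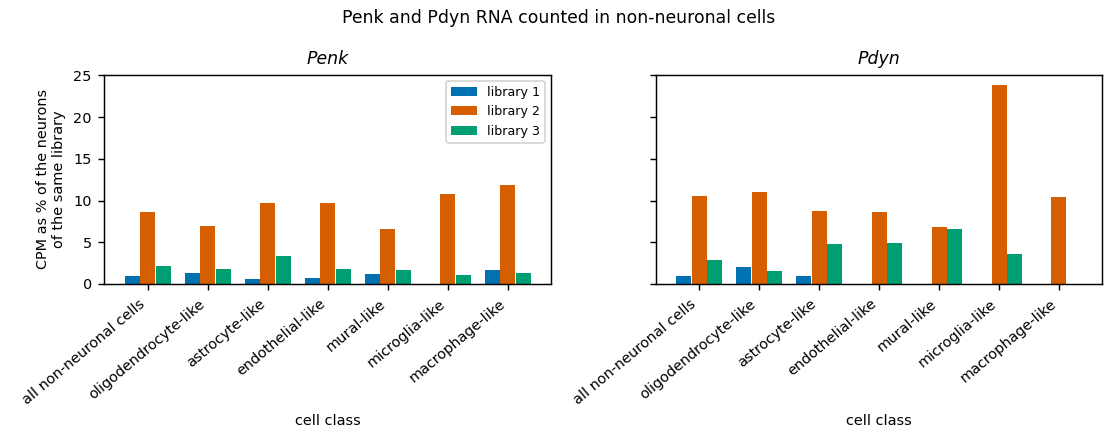
Penk and Pdyn CPM of non-neuronal classes as a percentage of the CPM in neurons of the same library (linear axis from 0, 1 bar per library). Library 2 was highest in all 7 groups for both genes, at 8.57% for Penk and 10.6% for Pdyn over all non-neuronal cells.

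The mix of the 2 precursors was read as the share of Pdyn in their summed UMIs. Pdyn made up 7.37%, 9.7% and 6.77% of the Penk and Pdyn UMIs of neurons in libraries 1 to 3, and 7.5%, 11.7% and 9.09% in non-neuronal cells. The exact 95% intervals of the non-neuronal shares, 1.57% to 20.4%, 9.63% to 14% and 5.48% to 14%, held the neuronal share in each library. In library 2 the shares of oligodendrocyte-like cells (14.5%, interval 10.6% to 19.1%) and microglia-like cells (19.2%, interval 10.9% to 30.1%) lay above the neuronal share, outside their intervals. None of the 4 comparisons between glial or vascular classes and oligodendrocyte-like cells, in which Penk was the 1 member tested, gave a call: astrocyte-like (0.33 ± 0.28, adjusted p = 0.352), OPC-like, meaning oligodendrocyte precursors (-0.09 ± 0.41, adjusted p = 0.905), endothelial-like (0.02 ± 0.26, adjusted p = 0.962) and mural-like cells (-0.24 ± 0.28, adjusted p = 0.548), in edgeR log2 differences. Over all genes tested 47.3%, 26.8%, 53.1% and 37.6% passed in these 4 comparisons, in that order. The unadjusted p of Penk was also at 0.05 or above in each, and DESeq2 gave 0 calls of Penk in each.

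Both precursors were also found in Tshz1-Pcdh8-like neurons. These neurons, named for their markers Tshz1 and Pcdh8, numbered 11, 185 and 85. Their Penk level was 1714, 2152 and 3747 CPM, above every D1-like and below every D2-like value. Against D1-like neurons Penk was 1.73 ± 0.25 higher on the log2 scale (3.32-fold, edgeR adjusted p = 4.19e-05, higher in 3 of 3 libraries). It was the 1 of 4 tested members that passed, against 1.98% of all genes. The call was lost without library 2 (adjusted p = 0.735), without library 3 (adjusted p = 0.673) and with a stricter gate (adjusted p = 0.327), while the difference stayed between 1.49 and 1.8.

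Pdyn was at 0, 307 and 397 CPM in Tshz1-Pcdh8-like neurons, where the 0 of library 1 rests on 11 cells. These values lay under the D1-like range, but the difference did not pass (-0.73 ± 0.24, adjusted p = 0.154). Oprk1 was at 101, 82.2 and 65.1 CPM, also under the D1-like range, and did not pass (-0.81 ± 0.26, adjusted p = 0.116). With only cells of at least 1000 UMIs, 3 of the 4 members passed, against 3.99% of all genes. Both that setting and the stricter gate left library 1 with too few of these neurons, so they also drop library 1, and with the stricter gate 0 of 7730 genes passed in edgeR, with 609 at an unadjusted p under 0.05. Among the 234 of these neurons with 0 UMIs of the D2 markers, Penk was at 1776, 1992 and 4188 CPM.

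**Figure D3:**
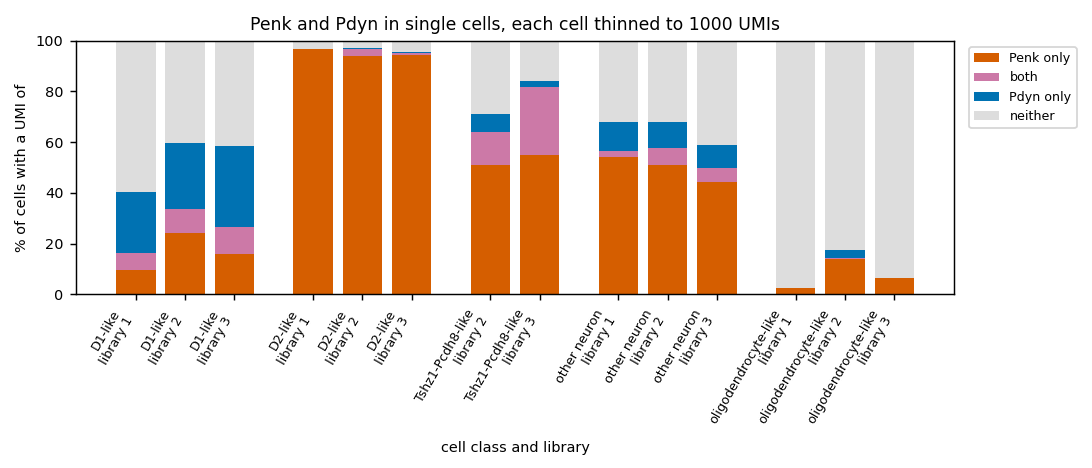
Share of cells with a UMI of Penk only, of both genes, of Pdyn only or of neither, after each cell was thinned to 1000 UMIs (1 bar per class and library, adding to 100%). D2-like neurons were nearly all Penk only, D1-like neurons held mixed groups, and the Tshz1-Pcdh8-like bars have the largest share with both. Library 1 is left out for Tshz1-Pcdh8-like neurons, with 4 cells deep enough.

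In single cells, both precursors were found together in 8.95% ± 2.03 of thinned D1-like neurons (SD, n = 3) and in 1.06% ± 1.39 of D2-like neurons. In Tshz1-Pcdh8-like neurons the share was 19.9%, over libraries 2 and 3. Among D1-like neurons, Pdyn was found in 36.4% ± 7.34 of cells with Penk and in 37% ± 7.49 of cells without it. The libraries ran in different directions, at 41.2%, 27.9% and 40% with Penk and 28.7%, 39% and 43.3% without. They held 104, 1224 and 224 thinned D1-like neurons, and the difference was not tested. In Tshz1-Pcdh8-like neurons Pdyn was found in 26.6% of cells with Penk and in 16.8% of cells without. That gap came from library 3 (32.8% against 13.3%), where the cells without Penk were 2 with Pdyn and 13 with neither. In library 2 the shares were 20.4% and 20.3%. Oprk1 was found in 15.3% ± 1.73 of D1-like neurons with Pdyn and in 13% ± 2.36 of those without. In each library the share was higher with Pdyn (15.6%, 13.4% and 16.8% against 12.5%, 10.9% and 15.5%). These shares rest on 5, 58 and 16 cells with both genes, and the difference was not tested.

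D1-like neurons were further divided by the patch markers Kremen1 and Sema5b, which mark the striosome compartment. Those with a UMI of either marker numbered 6, 85 and 19. Their Penk level was 739, 1200 and 2497 CPM, against 321, 626 and 967 CPM in D1-like neurons without the markers, and was higher in 3 of 3 libraries although the ranges overlap. The log2 difference was 1.13 ± 0.17 (edgeR adjusted p = 0.0121). Penk was 1 of 3 genes of 4709 that passed, which is 0.0637% of all genes tested. The call was lost under DESeq2 (adjusted p = 0.9996) and with any library left out (adjusted p from 0.425 to 0.996). Pdyn was at 469 ± 116 CPM with the markers and 525 ± 44.6 CPM without (adjusted p = 0.998), and Oprk1 at 110 ± 13.5 and 139 ± 26.3 CPM (adjusted p = 0.998).

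Outside the spiny classes, glutamatergic-like neurons held little of the precursors. Of 4 tested members 3 were lower in glutamatergic-like neurons (60, 209 and 92 cells) than in D1-like and D2-like neurons summed, against 16.8% of all genes passing in either direction. Penk was at 134, 482 and 307 CPM in glutamatergic-like neurons and at 3298, 3091 and 4727 CPM in spiny neurons (log2 difference -3.56 ± 0.34, edgeR adjusted p = 0.000221). Pdyn was at 8.35, 44.7 and 15.9 CPM against 257, 356 and 325 CPM (-3.54 ± 0.31, adjusted p = 0.000135). Free RNA moved with these low values: Penk in oligodendrocyte-like cells was 35.9, 179 and 55 CPM, in the same order of libraries, and its part in the result was not tested.

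Oprk1 followed in libraries 2 and 3 and not in library 1. It was at 117, 5.83 and 15.9 CPM in glutamatergic-like neurons and at 139, 100 and 158 CPM in spiny neurons, and the groups overlap through library 1. The log2 difference was -2.61 ± 0.53 (edgeR adjusted p = 0.0103). It was -3.58 without library 1, and it did not pass with no replicate block (adjusted p = 0.0534). Oprl1 was at 58.4, 26.2 and 36.2 CPM against 26.3, 27.2 and 21.8 CPM, a difference of 0.47 ± 0.29 that did not pass (adjusted p = 0.323). Without library 1 the Penk difference was -3.22 and no longer passed (adjusted p = 0.108).

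Pnoc was highest in a small group of interneurons, which held 28 of its 52 UMIs. In Sst-Npy interneuron-like cells, which were gated on somatostatin and neuropeptide Y RNA and numbered 9, 33 and 10, Pnoc was at 150, 119 and 134 CPM. In spiny neurons it was at 0, 0.54 and 4.09 CPM, so the groups did not overlap. These levels rest on 2, 18 and 8 UMIs in 10 of the 52 interneurons, and 1 cell held 12 of the 18 in library 2 and 1 cell 5 of the 8 in library 3. The 6 Pnoc UMIs of D2-like neurons also came from 1 cell, in library 3. Pnoc met the filter on low counts through these interneurons alone, so it could enter this fit only by being higher in them. The log2 difference was 6.44 ± 0.61 (edgeR adjusted p = 8.64e-05), and this p-value is no support, since the filter had set the direction. With a library left out the difference was between 5.26 and 7.76 and did not pass (adjusted p from 0.0761 to 0.131).

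The same interneurons held less of the spiny precursors. Penk was at 150, 396 and 134 CPM (log2 difference from spiny neurons -3.79 ± 0.4, adjusted p = 0.000331, edgeR) and Pdyn at 0, 52.8 and 16.7 CPM (-3.16 ± 0.41, adjusted p = 0.000559). Oprk1 was at 0, 26.4 and 0 CPM, from 4 UMIs in all (-2.8 ± 0.62, adjusted p = 0.0114). Oprl1 ran the other way at 150, 39.6 and 167 CPM against 26.3, 27.2 and 21.8 CPM. The interneuron levels of Oprl1 rest on 2, 6 and 10 UMIs, with exact counting intervals of 18.1 to 541, 14.5 to 86.2 and 80.3 to 308 CPM. These intervals held the spiny level in libraries 1 and 2 but not in library 3. The Oprl1 difference of 1.68 ± 0.51 did not pass (adjusted p = 0.0549), although the groups did not overlap. It passed with no replicate block (adjusted p = 0.0258), with no filter on low counts (adjusted p = 0.0191) and with edgeR's default prior (adjusted p = 0.00585). Of 5 tested members 3 passed as lower, against 14.4% of all genes passing in either direction. Pnoc is left out of that count, since it could enter only by being higher. When any library was left out, 0 members passed. This comparison and the glutamatergic one share their spiny neurons.

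Parvalbumin interneuron-like cells (12, 38 and 9) were in no comparison and are described by level. Penk there was at 120, 414 and 960 CPM, beside 35.9, 179 and 55 CPM in oligodendrocyte-like cells. A single cell held 48 of the 53 Penk UMIs in library 3, and another 34 of the 67 in library 2. Pdyn was at 0, 30.9 and 0 CPM, beside 4.23, 30.2 and 3.66 CPM in the latter. Oprl1 was at 40.2, 55.6 and 54.4 CPM, and Oprk1 had 0 UMIs in all 3 libraries, which allows up to 120, 18.5 and 54.4 CPM at 3 counts.

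**Figure D4:**
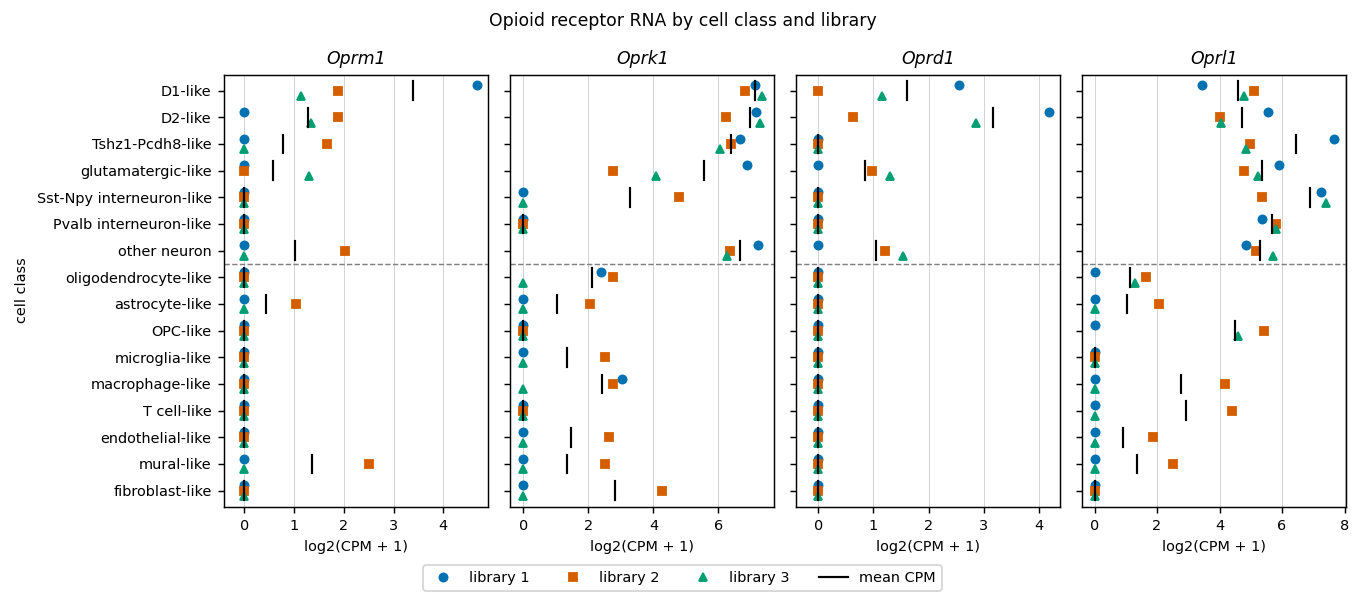
Levels of the 4 receptor RNAs, as log2(CPM + 1), in the same 16 classes (rows), with 1 point per library, the black bar at the log2 of the mean CPM plus 1 and the dashed line between neurons and other cells. Oprk1 was high in the spiny classes and at 0 in Pvalb interneuron-like cells, Oprl1 was found in each neuronal class, and Oprm1 and Oprd1 lay near 0 in most classes.

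Classes were also ordered by their mean level. For Penk the library ranges separated D2-like neurons from all classes below them, led by neurons of no subclass (2799 ± 227 CPM) and Tshz1-Pcdh8-like neurons (2538 ± 1070), which overlapped. They also separated Tshz1-Pcdh8-like from D1-like neurons, whereas from D1-like neurons down each class overlapped the next. For Pdyn the ranges separated D1-like neurons from the Tshz1-Pcdh8-like class, and neurons of no subclass from all classes below them. For Oprk1 the order ran from D1-like (137 ± 24.4 CPM) through D2-like (123 ± 42.5), neurons of no subclass (101 ± 39.9) and Tshz1-Pcdh8-like (82.7 ± 17.9) to glutamatergic-like (46.2 ± 61.4), and every neighbour in it overlapped. Among the neuronal classes, Oprl1 ran from Sst-Npy interneuron-like (119 ± 69.3) to D1-like neurons (23.2 ± 12.1), again with each neighbour overlapping.

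Oprl1 also appeared in OPC-like cells. They held 0, 2 and 2 UMIs in 13, 34 and 25 cells, or 0, 41.5 and 23.3 CPM, with exact 95% counting intervals of 5.02 to 150 CPM in library 2 and 2.83 to 84.3 CPM in library 3. Oligodendrocyte-like cells of these libraries held 2.16 and 1.47 CPM. With 4 UMIs the gene did not enter the test.

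The mu and delta receptors were at the edge of detection. Oprm1 had 5, 10 and 1 UMIs in D1-like neurons, which is 24.4, 2.69 and 1.21 CPM, and 0, 5 and 1 in D2-like neurons. Oprd1 had 1, 0 and 1 UMIs in D1-like and 3, 1 and 4 in D2-like neurons, which is 17, 0.542 and 6.21 CPM in the latter. D1-like neurons held 16 of the 34 Oprm1 UMIs and D2-like neurons 8 of the 19 Oprd1 UMIs. Neither gene passed the filter on low counts in any comparison, so no difference between neuronal classes was detectable at this depth.

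**Figure D5:**
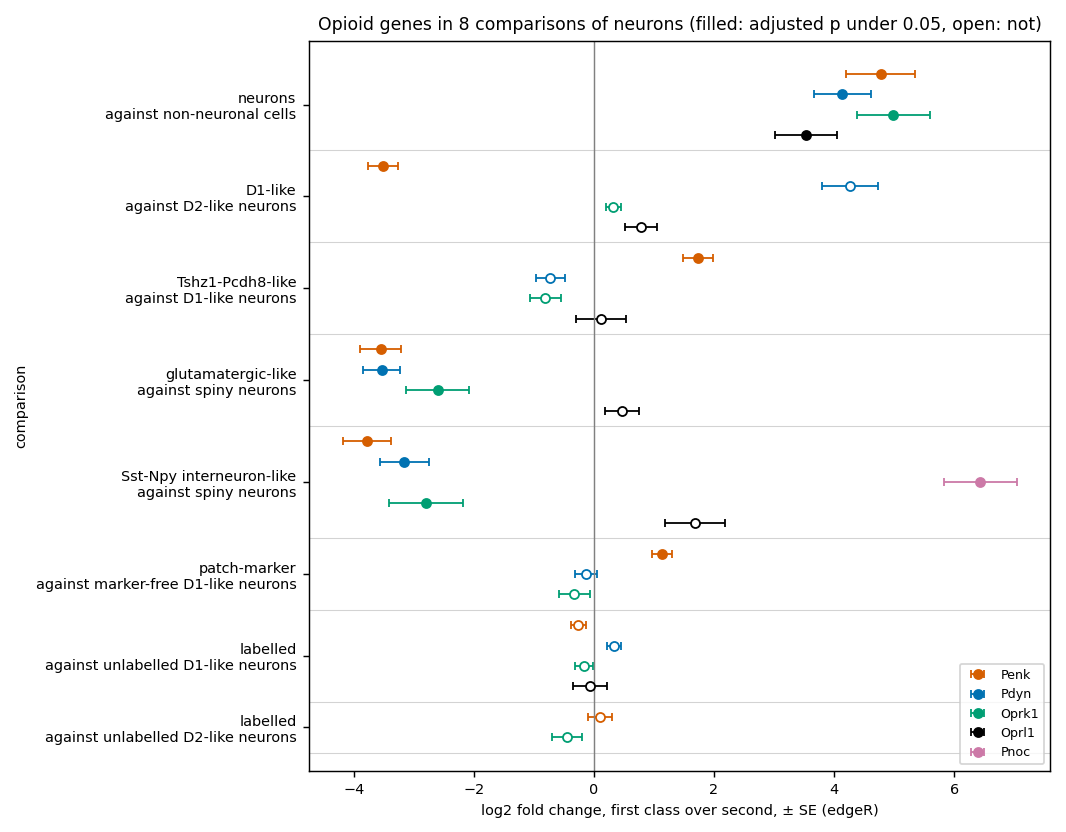
Fitted log2 fold changes of the members tested in 8 comparisons that involve neurons (rows), first class over second, with bars of 1 SE from edgeR. Filled points had an adjusted p under 0.05 and open points did not. Precursors and Oprk1 lie far from 0 between spiny and other neurons, and all points of the labelled comparisons are open and within 0.45 of 0.

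FLiCRE reporter RNA, taken here to be the mCherry feature, divided the D1-like neurons into labelled cells with at least 1 mCherry UMI (11, 303 and 38) and unlabelled ones (150, 960 and 196). None of the 4 members tested passed, against 0.0147% of all genes. At an unadjusted p under 0.05, 1 member and 364 of 6786 genes were counted by edgeR, and DESeq2 gave 0 calls of members. Pdyn came closest, at 614, 588 and 738 CPM in labelled and 468, 484 and 530 CPM in unlabelled neurons. It was higher in 3 of 3 libraries, with groups that did not overlap, and its log2 difference was 0.34 ± 0.11 (edgeR adjusted p = 0.881).

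Depth moved with the label. Labelled D1-like neurons had median depths of 1553, 3276 and 3865 UMIs and unlabelled ones 1205.5, 2497 and 2775. With unlabelled neurons matched on UMIs the Pdyn difference was 0.29 (adjusted p = 0.979). Penk was at 491, 627 and 788 CPM in labelled and 324, 683 and 1193 CPM in unlabelled D1-like neurons (-0.26 ± 0.13, adjusted p = 0.881), and Oprk1 at 246, 102 and 144 against 128, 117 and 167 CPM (-0.17 ± 0.15, adjusted p = 0.885).

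Among D2-like neurons (7, 113 and 22 labelled), 0 of the 2 members tested passed, and 0% of all genes did in edgeR. At an unadjusted p under 0.05, 0 members and 241 of 5493 genes were counted, and DESeq2 gave 0 calls of members. Penk was at 5992, 9265 and 10313 CPM in labelled and 6785, 7589 and 9200 CPM in unlabelled neurons, with overlapping ranges and a log2 difference of 0.1 ± 0.2 (adjusted p = 0.98). Oprk1 was at 305, 49.8 and 134 CPM against 132, 82.3 and 157 CPM (-0.45 ± 0.26, adjusted p = 0.972).

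The machinery that makes opioid peptides was read from a list of 12 peptide processing genes. Between neurons and non-neuronal cells, 6 of 11 tested were higher and 3 lower, with a median log2 difference of 1.05 beside -0.05 over all genes tested. Of all genes tested 65.8% passed there, so the count is a weak statement about the list. The largest were granins and a convertase: Chgb (4.55 ± 0.37), Scg2 (4.52 ± 0.49), Pcsk2 (4.21 ± 0.38), which cuts prohormones, and Chga (4.03 ± 0.51), all with an edgeR adjusted p of 0.000372 or less. Pcsk2 was at 407 ± 158 CPM in neurons and at 15.2 ± 6.76 CPM elsewhere.

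Between D1-like and D2-like neurons 2 of 10 tested processing genes passed, with small differences beside those of the precursors. Scg2 was 0.35 ± 0.08 higher in D1-like neurons (edgeR adjusted p = 0.00923) and Pcsk2 was lower, with a log2 difference of -0.32 ± 0.08 (adjusted p = 0.0147). With no replicate block, with no filter on low counts, with DESeq2 and with the stricter gate 0 genes of the list passed, and 0 or 1 with a library left out. In glutamatergic-like against spiny neurons 3 of 10 were higher and 1 lower: Chga (1.94 ± 0.21), Chgb (1.63 ± 0.3) and the carboxypeptidase Cpe (0.75 ± 0.17) were higher and Scg2 lower (-0.78 ± 0.19). With a library left out 1 to 7 passed, and 2 with no replicate block. In Sst-Npy interneuron-like cells the amidating enzyme Pam was at 739 ± 388 CPM against 73.8 ± 46.5 CPM in spiny neurons (3.28 ± 0.31, edgeR adjusted p = 0.000173), Scg2 was higher (1.62 ± 0.38) and Pcsk2 lower (-1.98 ± 0.28), which makes 2 of 10 higher and 1 lower, and 0 with any library left out. Over all genes tested 2.94% passed between D1-like and D2-like neurons, 16.8% in the glutamatergic-like and 14.4% in the Sst-Npy comparison. No processing gene of 10 tested passed in the Tshz1-Pcdh8-like, patch-marker or labelled comparisons. Over all genes 1.98% and 0.0637% passed in the first 2 of these, and 0.0147% and 0% in the labelled D1-like and D2-like ones.

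Of 10 peptide degradation genes, 2 were higher and 3 lower in neurons than in non-neuronal cells, beside 65.8% of all genes passing there. Mme, which encodes neprilysin, an enzyme that cleaves enkephalins, was at 27.5 ± 11 CPM in neurons and 0.917 ± 1.02 CPM elsewhere (4.02 ± 0.53, edgeR adjusted p = 0.000353). Within neurons it was at 34.4 ± 10.8 CPM in spiny and 1.3 ± 2.24 CPM in glutamatergic-like neurons (-3.65 ± 0.62, adjusted p = 0.00239). It was 1 of 2 lower degradation genes of 6 tested there, against 16.8% of all genes passing, and 0 passed without library 3. The aminopeptidases Enpep and Anpep were high in vessels: in mural-like cells, a class of vessel-wall cells, Enpep was at 161 ± 38.7 CPM and Anpep at 93.7 ± 89.2 CPM, against 0.244 ± 0.423 and 0.24 ± 0.416 CPM in oligodendrocyte-like cells (adjusted p = 5.74e-06 and 6.36e-05). The endothelin-converting enzyme Ece1 was at 191 ± 16.4 CPM in endothelial-like cells against 5.76 ± 1.93 CPM (adjusted p = 1.7e-11). None of 6 tested degradation genes passed between D1-like and D2-like neurons in edgeR, against 2.94% of all genes.

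The list of 20 receptor signalling genes covers inhibitory G proteins, potassium channels, arrestins, kinases and regulators. In neurons against non-neuronal cells 10 of 18 tested were higher and 3 lower, with a median of 0.95 beside -0.05 over all genes. With 65.8% of all genes passing there, this count too is a weak statement about the list. Rgs14 (4.23 ± 0.42), Rgs9 (4.04 ± 0.45) and the potassium channel genes Kcnj3 (3.64 ± 0.46) and Kcnj9 (3.54 ± 0.41) led. Between D1-like and D2-like neurons, of 16 tested the G protein subunit gene Gnai1 (0.9 ± 0.14, edgeR adjusted p = 2.01e-05) and Rgs4 (0.49 ± 0.08, adjusted p = 1.61e-05) were higher, and Gnao1 was lower (-0.38 ± 0.08, adjusted p = 0.00229). Over all genes tested 2.94% passed between these 2 classes. With no replicate block or without library 3 the list gave 0 calls, and with DESeq2 1.

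Other neuronal classes differed from spiny neurons in these effectors too. In glutamatergic-like against spiny neurons 5 of 17 were higher and 4 lower, among them Kcnj3 (140 ± 28.1 against 18 ± 2.13 CPM, 2.94 ± 0.23), Adrbk2, the gene of a receptor kinase (2.74 ± 0.32), and Adcy5, the main striatal adenylyl cyclase (94.1 ± 30.2 against 816 ± 181 CPM, -3.0 ± 0.29). Rgs9 was also lower (-3.66 ± 0.34), but it is 1 of the markers that gated spiny neurons. In Tshz1-Pcdh8-like against D1-like neurons Kcnj3 was higher (1.5 ± 0.31, edgeR adjusted p = 0.00428) and Rgs4 lower (-0.99 ± 0.24, adjusted p = 0.0203), of 14 tested, and 0 passed with DESeq2, with the stricter gate or without library 2 or 3. In Sst-Npy interneuron-like cells 1 of 12 was higher and 4 lower, with Rgs4 (-2.97 ± 0.38) and Adcy5 (-2.38 ± 0.29) among them, and 0 passed with any library left out. Over all genes tested 16.8% passed in the glutamatergic-like, 1.98% in the Tshz1-Pcdh8-like and 14.4% in the Sst-Npy comparison. None of 14 and 11 passed in the labelled D1-like and D2-like comparisons, against 0.0147% and 0% of all genes.

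Genes whose levels most resembled a member over 15 gated classes were found by the correlation of log2(CPM + 10), which is a description over classes that share libraries and depth. For Penk they included Sertad4 (r = 0.933) and Rasd2 (0.929), and for Pdyn they were Slc35d3 (0.948), Isl1 (0.932) and Drd1 (0.907). Oprk1 came nearest to Car12 (0.981), Strip2 (0.98) and Acvr1c (0.98), and Oprl1 to Dynll2 (0.959), Fbll1 (0.957) and Fam169a (0.957). Pnoc was nearest to Cort (0.991), Chodl (0.99) and Nxph2 (0.989), a pattern set by the Sst-Npy interneuron-like class. Isl1, Drd1 and Chodl are gate markers, so their likeness follows in part from the gates. For Oprm1 (Dlk1, 0.903) and Oprd1 (Gpr6, 0.91) the nearest genes rest on a few UMIs.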

How the data were processed

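Single-cell libraries were made with the 10x Genomics 3′ v2 kit, per the labels. The authors deposited whole UMI counts per gene and cell, as 1 matrix for all 3 samples. The submitters' processing notes name Cell Ranger 3.0 and mm10. How cells were called is not given in the sources used here. No other per-sample column was left unused (0).

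Barcodes under 300 genes or over 20% mitochondrial UMIs were dropped. Doublets were scored per library with Scrublet (scanpy 1.11.5, expected rate 0.06), whose automatic threshold marked 54, 0 and 10 cells. The 44, 296 and 28 highest scores (0.8% per 1000 cells) were removed instead. Marker gates, not clusters, set the classes: neurons needed 3 neuron markers and at least 2 times those of any other class, and other classes 2 markers. D1-like and D2-like neurons needed 2 marker UMIs and 3 times those of the other class. For D2-like neurons the D1 marker Tac1 was left out of that ratio. D1-like neurons also needed a UMI of a D1 marker other than Tac1. Sst-Npy interneuron-like cells needed 5 marker UMIs and 0.5% of the cell's UMIs. These numbers were set after the cells were seen, and the members and lists were chosen with earlier results of these data known.

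UMI counts were added up over the cells of a class in each library, and an arm needed 5 cells. Sums were tested over all genes with edgeR 4.0.16 (quasi-likelihood, robust prior, TMM, filterByExpr, Benjamini-Hochberg at 0.05) in R 4.3.3, with the library as replicate block, since each library gives both sums of a comparison. The code was tested on simulated data. Alternatives were DESeq2 1.42.0, another scaling, no filter, no block, the default prior, deep cells, a stricter gate, no doublet removal, and each library left out. Named genes are the 7 members, up to 4 genes per pathway list and comparison with the largest change, and the 3 most alike genes over classes. Sequences and positions come from GENCODE M21. Some likeness values and coding stretches are not reported here.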

Additional observations from a re-analysis of the deposited data

Results flagged for a closer look

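Cells that met no gate entered none of the comparisons. Their leading genes were Spp1, Lcn2 and Wfdc17. In every library 4 members were above the level of oligodendrocyte-like cells there. They were picked by that rule, and the share of all genes that meet it was not counted. Penk was at 423 ± 287 CPM (SD, n = 3 libraries; 380, 729 and 159 CPM) against 35.9, 179 and 55 CPM in oligodendrocyte-like cells of the same libraries. Pdyn was at 54.6 ± 16.6 CPM against 4.23, 30.2 and 3.66 CPM. Oprk1 was at 19.8 ± 10.4 CPM and Oprl1 at 7.98 ± 1.09 CPM, where oligodendrocyte-like cells held at most 5.76 and 2.16 CPM. These 389, 660 and 175 cells had median depths of 759, 1155.5 and 1207 UMIs, and no test was made on them.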

How the results depend on the processing

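Of 375 gene-level log2 differences recomputed under an alternative, 319 kept their direction and their side of the threshold, 26 no longer passed, 16 came to pass and 14 changed sign. In counts of members passing, 111 of 134 stayed within 1.5 times the main count. Without the filter on low counts 7 members passed between neurons and non-neuronal cells, 2 between D1-like and D2-like neurons and 2 between Tshz1-Pcdh8-like and D1-like neurons. With the filter 65.8%, 2.94% and 1.98% of all genes passed in these comparisons, and the shares without it are not given. Between D1-like and D2-like neurons 2 also passed with DESeq2, with no replicate block, with the default prior and with the stricter gate, and 1 to 3 with a library left out. Leaving out a library gave 0 for Sst-Npy interneuron-like cells and for patch-marker neurons, and 0 to 1 for Tshz1-Pcdh8-like neurons. For the latter the count was 3 with cells of at least 1000 UMIs and 0 with the stricter gate, both without library 1. For patch-marker neurons it was 0 with DESeq2, with no replicate block, with cells of at least 1000 UMIs and with the stricter gate. Without the replicate block the Oprk1 call of glutamatergic-like neurons was lost (adjusted p = 0.0534), and among the members it also changed the calls of Pdyn between D1-like and D2-like neurons, Oprl1 of Sst-Npy interneuron-like cells and Penk of patch-marker neurons.

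The 14 changes of sign were all in differences that did not pass. Oprl1 in Tshz1-Pcdh8-like neurons ran from -0.060 (without library 1) to 0.099 with a library left out and was -0.020 with cells of at least 1000 UMIs. Oprl1 in labelled D1-like neurons ran from -0.037 to 0.102 (without library 3) and was 0.062 with doublets kept. Penk in labelled D2-like neurons was -0.12 with DESeq2, -0.031 with the default prior and -0.023 with UMI matching, and ran from -0.071 to 0.24 with a library left out, below 0 without library 2 or 3. Penk in endothelial-like cells was -0.14 without the filter, -0.17 with DESeq2, -0.063 with cells of at least 1000 UMIs and -0.040 with doublets kept, and ran from -0.40 (without library 2) to 0.13 with a library left out.

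Thinning to 1000 UMIs moved the share of D1-like neurons with a UMI from 55.1% to 36.2% for Pdyn and from 26.5% to 13.8% for Oprk1, and fewer UMIs per cell are part of that setting. The cause of the other changes was not tested. Depth limits Oprm1, Oprd1 and Pnoc most, with 34, 19 and 52 UMIs.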

Other observations

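Neurons that met no subclass gate held opioid RNA at levels between those of the named classes. These 401, 1134 and 270 cells held Penk at 3061, 2677 and 2658 CPM, Pdyn at 253, 218 and 182 CPM and Oprk1 at 147, 80 and 75.7 CPM. After thinning to 1000 UMIs, Pdyn was found in 9.1% ± 4.24 of those with Penk and in 22.4% ± 4.44 of those without (SD, n = 3 libraries).

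Cholinergic-like cells, 8 in library 2 alone, held 19 Penk UMIs (223 CPM), 4 Oprl1 UMIs (47 CPM), 1 Pdyn UMI and 1 Oprk1 UMI. Oligodendrocyte-like cells of that library held 179 CPM of Penk and 2.16 CPM of Oprl1.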
